A study of Mus musculus with 2 samples.

Results

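Expression of 8 genes that act around the anaphase-promoting complex/cyclosome (APC/C) was read along the cell-cycle position of cultured mouse neural progenitors. The 8 genes are the activators *Cdc20* and *Fzr1*, the ubiquitin-conjugating enzymes *Ube2c* and *Ube2s*, the inhibitor *Fbxo5*, the substrate *Pttg1*, and the subunits *Anapc11* and *Cdc26*. They were chosen by name, and all 8 were found by Ensembl identifier among the 10666 genes of the expression table. The samples are 2 replicate cultures of neurospheres, spheres of neural progenitors that grow in suspension. The cells came from wild-type C57BL/6 embryos at embryonic day 14.5 (dorsal telencephalon) and were kept in medium with EGF and bFGF. There is 1 condition and no control group, and nothing says whether the cultures came from separate litters. Single-cell RNA sequencing gave 5748 cells in culture 1, with a median of 19477 UMIs per cell, and 7057 cells in culture 2, with a median of 14637. Of the cell barcodes, 48 occurred in both cultures.

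The APC/C is a large E3 ubiquitin ligase that marks mitotic proteins for destruction by the proteasome. Cdc20 activates it from metaphase, and Fzr1 (also called Cdh1) takes over at mitotic exit and keeps it active through G1. Fbxo5 (Emi1) blocks it during S phase and G2, so that cyclins and geminin can accumulate. Ube2c starts ubiquitin chains on the substrates and Ube2s lengthens them. Securin, the product of *Pttg1*, holds the protease separase inactive until the APC/C removes it. Anapc11 is the RING subunit that binds the E2 enzymes, and Cdc26 is a small scaffold subunit.

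The label of the cultures was checked with markers. The progenitor genes *Nes* and *Vim* had a value above 0 in 93.3% and 99.2% of the cells of culture 1, and in 89.8% and 99.9% of those of culture 2. *Fabp7*, a radial glia gene, had a value in 100% and 99.96% of cells, but *Pax6*, a factor of cortical progenitors, in only 21.1% and 23.1%. *Olig2*, a transcription factor of the oligodendrocyte lineage and of cultured progenitors, had a value in 97.3% and 91.9% of cells. Values of *Dcx*, a gene of young neurons, occurred in 7.34% and 1.56% of cells. Of the genes listed for oligodendrocyte progenitors, *Pdgfra* had a value in 8.77% and 1.81% of cells and *Sox10* in 4.26% and 0.751%. *Cspg4* of the same list went the other way between the cultures, with 11.8% and 13.7%. The astroglial genes *Aldh1l1* and *S100b* had a value in 43.2% and 18.6% of the cells of culture 1 and in 28.8% and 6.65% of those of culture 2. *Sox2*, *Hes5* and the markers listed for microglia and endothelium were not analysed here.

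The start regions of the 4 genes that varied with the cell-cycle position are shown because 3 of them hold a cell-cycle homology region (CHR) and all hold a CCAAT box, elements known from promoters of G2 and mitotic genes. The letters searched were TTTGAA for the CHR and CCAAT for the CCAAT box, on both strands, and none of the matches shown overlap each other. Each sequence is from RefSeq (GRCm38.p6), runs 5′ to 3′ on the strand of the gene from 120 bases before the start site to 20 bases after it, and has the matches in capitals. *Cdc20* lies on the minus strand at chr4:118437324-118437463, *Ube2c* on the plus strand at chr2:164769809-164769948, *Fbxo5* on the minus strand at chr10:5805446-5805585 and *Fzr1* on the minus strand at chr10:81378351-81378490.
Cdc20: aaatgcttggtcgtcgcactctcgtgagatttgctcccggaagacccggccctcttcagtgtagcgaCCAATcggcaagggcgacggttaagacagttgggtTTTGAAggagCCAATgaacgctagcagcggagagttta
Ube2c: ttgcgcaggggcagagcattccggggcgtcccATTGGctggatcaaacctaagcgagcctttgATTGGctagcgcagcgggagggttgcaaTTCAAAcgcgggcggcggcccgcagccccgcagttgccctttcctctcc
Fbxo5: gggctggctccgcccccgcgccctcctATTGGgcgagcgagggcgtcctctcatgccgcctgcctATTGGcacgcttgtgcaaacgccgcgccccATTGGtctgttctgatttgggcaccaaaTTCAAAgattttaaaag
Fzr1: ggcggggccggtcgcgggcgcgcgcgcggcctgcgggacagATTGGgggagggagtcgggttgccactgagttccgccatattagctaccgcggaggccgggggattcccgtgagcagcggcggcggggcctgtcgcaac
The CHR of *Cdc20* begins 18 bases before the start site and that of *Ube2c* 29 bases before it, while that of *Fbxo5* begins at base 4 after the start. Over all 300 bases listed per gene, *Cdc20* had 2 CCAAT matches, *Ube2c* 6, *Fbxo5* 3 and *Fzr1* 1. Of those of *Ube2c*, 2 on opposite strands share bases and lie outside the stretch shown. The other 4 genes had no CHR match, and of them only *Anapc11* had a CCAAT match. For comparison, 17.9% of all 32851 listed start regions hold TTTGAA and 37.4% hold CCAAT. Among the genes of the table with a listed start region these shares were 11.3% and 39.2% of 8318 genes, and among those that varied with the position they were 32.6% and 60.1% of 353 genes. A match of letters is a description and not evidence of binding.

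The cell-cycle position is an angle from 0 to 2π that the authors derived from the expression of cell-cycle genes. Cells near 0 and 2π are in G1, S phase lies around 0.5π to 1π, and G2 and mitosis follow from 1π. It was learned from these same cells, and any of the 8 genes or of the other pathway genes below may be among the genes that set it. Variation of these genes along the angle is therefore a description and not independent of it. A gene was said to vary when 2 harmonics of the position explained a share R² of at least 0.05 of the variance of its log2(value + 1) in both cultures. By this rule 4 of the 8 genes varied (*Ube2c*, *Cdc20*, *Fbxo5* and *Fzr1*), beside 4.01% of all 10666 genes. The R² of *Ube2c* was 0.743 in culture 1 and 0.725 in culture 2, which ranks 4 of all genes by the lower value. That of *Cdc20* was 0.693 and 0.673 (rank 9), that of *Fbxo5* 0.397 and 0.330 (rank 62), and that of *Fzr1* 0.109 and 0.131 (rank 224). The R² of *Ube2s* passed the threshold in culture 2 (0.143) and not in culture 1 (0.0323). *Anapc11* (0.0182 and 0.0303), *Pttg1* (0.0121 and 0.00677) and *Cdc26* (0.00643 and 0.00169) passed it in neither culture.

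**Figure D1:**
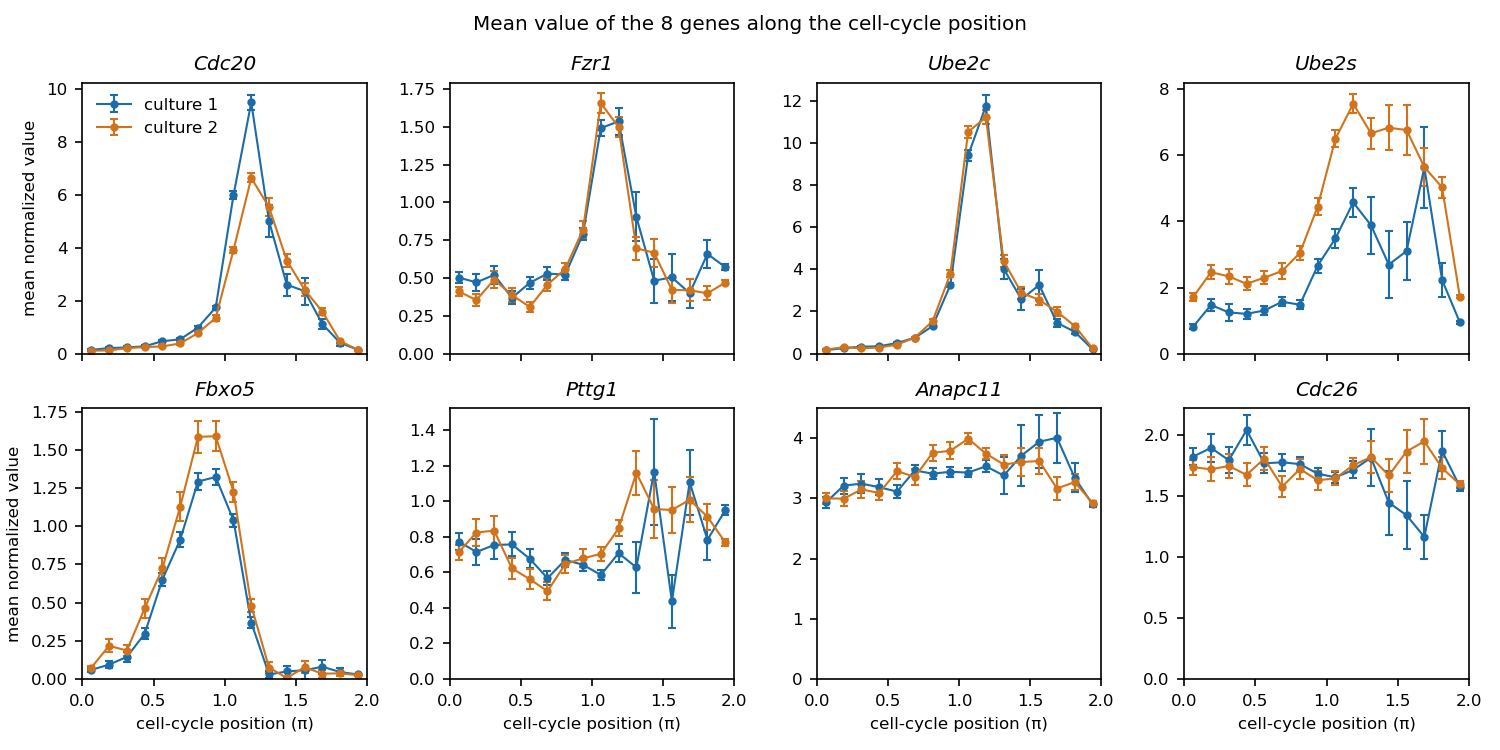
Mean normalized value (vertical axis, linear scale) of each of the 8 genes in 16 classes of the cell-cycle position (horizontal axis, in units of π), for culture 1 (blue) and culture 2 (orange). Bars are standard errors over the cells of a class, so they do not measure the spread between cultures. *Cdc20* and *Ube2c* reach their highest mean at 1.125π to 1.25π in both cultures, *Fbxo5* at 0.875π to 1π (with a position computed without the 8 genes, *Ube2c* and *Fbxo5* are highest 1 class earlier in culture 2), and the highest mean of *Anapc11* and *Cdc26* is at most 1.36 times the lowest over the classes of at least 100 cells.

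Values were then averaged over 16 classes of the position of equal width. The values are normalized for the depth of each cell and not for gene length. The estimated step between values, taken to stand for a single UMI, also differed between genes. It ran from 0.334 for *Ube2s* in culture 1 to 1.58 for *Fbxo5* in culture 2. *Ube2s* values often lay between whole steps, so its step may not be such a unit. In culture 2 the step was 1.10 (*Ube2c*) to 2.03 (*Fbxo5*) times that of culture 1. Because of these steps, levels are compared along the position within a gene and not between genes. A fold is the mean of the highest class over the mean of the G1 cells, those in the 2 classes before and the 2 classes after 0 (2459 cells in culture 1 and 3991 in culture 2). Culture 1 has few cells late in the circle, with 25 to 53 cells in each of the 4 classes that begin at 1.25π to 1.625π, where culture 2 has 83 to 175. These classes are also the shallowest, with a median of 13141 to 15219 UMIs per cell in culture 1 and 11704 to 12452 in culture 2, against 23304 and 17388 at 0.875π to 1π. Values multiplied by total UMIs were read as an alternative, but the part of this difference in the normalized values was not tested.

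*Cdc20* (ENSMUSG00000006398, GRCm38 chromosome 4, 118432901 to 118437352) was low in G1 and rose steeply after 1π. Its mean in G1 cells was 0.159 in culture 1 and 0.155 in culture 2, where 13.0% and 11.7% of cells had a value above 0. At 0.875π to 1π the mean was 1.74 and 1.35, at 1π to 1.125π it was 5.99 and 3.91, and at 1.125π to 1.25π it reached 9.49 and 6.64. In that highest class 98.9% and 98.0% of cells had a value. The fold over G1 was 59.8 in culture 1 and 42.8 in culture 2 (51.3 ± 12.1, SD, n = 2). The decline was gradual: the mean was 5.01 and 5.53 at 1.25π to 1.375π, 2.60 and 3.52 in the next class, and 1.12 and 1.59 in the class that begins at 1.625π. Cells with *Cdc20* values thus remained present up to the edge of G1, at 51.3% and 68.9% of the cells of that last class.

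*Fzr1* (ENSMUSG00000020235, chromosome 10, 81366222 to 81378516), the activator of mitotic exit and G1, also had its highest mean just after 1π, but on top of a level that did not vanish in G1. The mean in G1 cells was 0.554 in culture 1 and 0.449 in culture 2, with a value in 39.7% and 30.8% of cells. The lowest mean was 0.368 at 0.375π to 0.5π in culture 1 and 0.308 at 0.5π to 0.625π in culture 2. It was 1.49 and 1.66 at 1π to 1.125π and 1.54 and 1.50 at 1.125π to 1.25π, so the order of these neighbouring classes differs between the cultures. The share of cells with a value peaked at 1π to 1.125π in both, at 74.7% and 74.8%. The fold over G1 was 2.77 and 3.69 (3.23 ± 0.649, SD, n = 2). Both activators were therefore highest in overlapping classes, while the fold of *Cdc20* over G1 was larger in each culture.

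*Ube2c* (ENSMUSG00000001403, chromosome 2, 164769898 to 164778822), which starts the ubiquitin chains, followed a curve like that of *Cdc20* with an earlier rise and a sharper first fall. Its mean in G1 cells was 0.226 and 0.310. At 0.875π to 1π it was 3.26 and 3.79, which is 27.7% and 33.7% of the highest class, where *Cdc20* stood at 18.3% and 20.3%. It reached 9.42 and 10.5 at 1π to 1.125π and 11.8 and 11.2 at 1.125π to 1.25π, with a value in 99.7% and 99.5% of cells. The fold over G1 was 52.1 and 36.2 (44.1 ± 11.2, SD, n = 2). At 1.25π to 1.375π the mean had dropped to 4.03 and 4.40, or 34.2% and 39.2% of the highest class, where *Cdc20* still stood at 52.7% and 83.4%. In the class that ends at 1.875π the order was the opposite, with *Ube2c* at 8.78% and 11.7% of its highest class and *Cdc20* at 4.24% and 7.07%. The highest class of *Ube2c* in culture 2 was 1π to 1.125π both with a position computed without the 8 genes and with values multiplied by total UMIs. *Cdc20* and *Ube2c* were correlated over single cells (r = 0.759 and 0.713), but within classes of the position r was 0.159 and 0.107. These correlations describe the 5748 and 7057 cells, which share their libraries and depths.

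*Fbxo5* (ENSMUSG00000019773, chromosome 10, 5799160 to 5805600), the inhibitor of the complex, rose earlier than the other 3 genes that varied. Its mean in G1 cells was 0.0417 in culture 1 and 0.0457 in culture 2, with a value in 4.60% and 2.86% of cells. It rose through S phase, from 0.296 and 0.462 at 0.375π to 0.5π to 0.911 and 1.13 at 0.625π to 0.75π. The highest mean was 1.32 and 1.59 at 0.875π to 1π, hardly above the 1.29 and 1.58 of the class before it. With a position computed without the 8 genes that earlier class, 0.75π to 0.875π, was the highest in culture 2. The fold over G1 was 31.7 and 34.8 (33.2 ± 2.15, SD, n = 2). The mean was 0.370 and 0.480 at 1.125π to 1.25π, where *Cdc20* was highest, and 0.0303 and 0.0755 in the class after it. The step between its values, taken to stand for a single UMI, was estimated in each culture. It was 2.03 times as large in culture 2 as in culture 1, so the level of *Fbxo5* is not compared between the cultures.

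**Figure D2:**
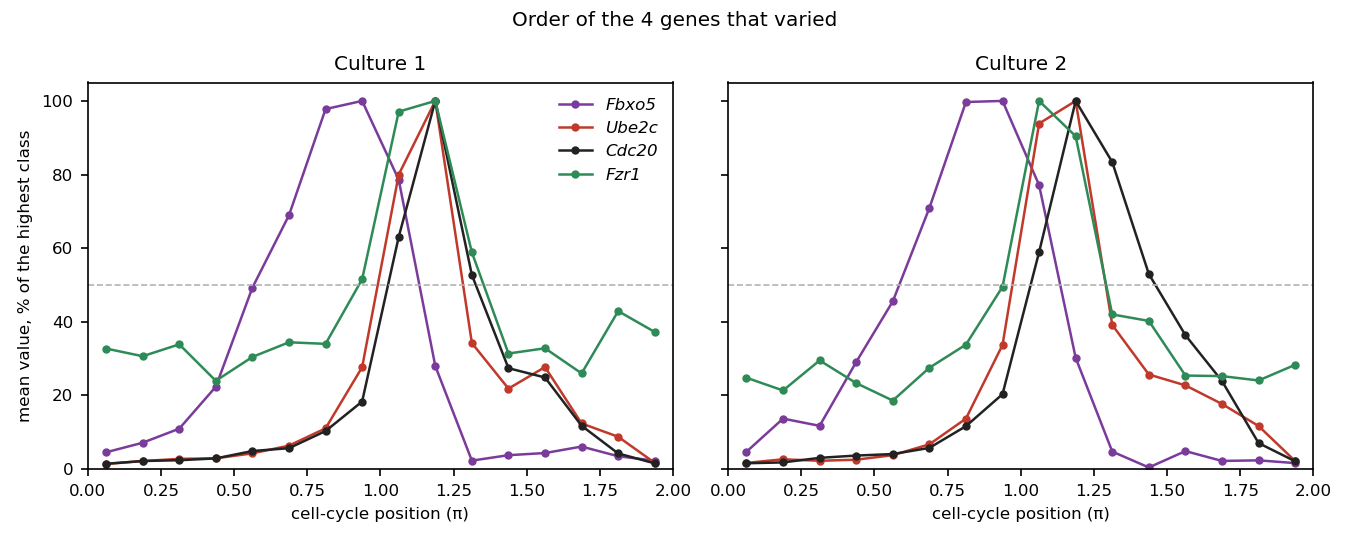
Mean value of *Fbxo5*, *Ube2c*, *Cdc20* and *Fzr1* as a percentage of the gene's highest class (vertical axis) against the cell-cycle position in units of π (horizontal axis), for each culture; points are 16 classes and the dashed line marks 50%. *Fbxo5* stays above 50% from 0.625π to 1.125π in both cultures, and *Ube2c* from 1π to 1.25π.

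*Fbxo5* and *Cdc20* were then counted together in each cell, from *Fbxo5* alone in S phase to *Cdc20* alone in mitosis. At 0.625π to 0.75π, 38.1% of the cells of culture 1 and 36.0% of those of culture 2 had a value of *Fbxo5* and none of *Cdc20*, against 13.6% and 14.0% with *Cdc20* alone. Cells with both were most frequent around 1π: 63.9% and 43.1% at 0.875π to 1π, and 62.9% and 52.3% at 1π to 1.125π. At 1.125π to 1.25π, 66.1% and 73.0% of cells had *Cdc20* alone. *Fbxo5* alone occurred in 0 of 360 cells of culture 1, which allows a share of up to 0.833% of cells with such values by counting error alone, and in 0.540% of cells of culture 2. At 1.25π to 1.375π *Cdc20* alone made up 88.7% and 91.4% of cells. Neither gene had a value in 84.8% and 87.6% of cells at 1.875π to 2π. Culture 2 is the shallower one, and the part of depth in these shares was not tested.

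*Ube2s* (ENSMUSG00000060860, chromosome 7, 4794546 to 4812590), which lengthens the chains, had higher means after 1π than in G1 in both cultures, but its values were spread over cells unlike those of *Cdc20* and *Ube2c*. Its mean in G1 cells was 1.01 in culture 1 and 1.98 in culture 2. At 1.125π to 1.25π it was 4.58 and 7.57, or 4.55 and 3.82 times the G1 mean. That class is the highest of culture 2, and in culture 1 only the class that begins at 1.625π is higher, with a mean of 5.64 ± 1.22 (SE over 39 cells) and a fold of 5.60. With a position computed without the 8 genes the highest class of culture 1 was instead the one that begins at 1.375π. With values multiplied by total UMIs it was 1.125π to 1.25π, as in culture 2. With only cells of at least 10000 UMIs it stayed the class that begins at 1.625π. The mean of culture 2 stayed between 5.03 and 6.84 from 1.25π up to 1.875π, at 66.5% to 90.4% of the highest class, where *Ube2c* had fallen to 11.7% to 39.2%.

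The share of cells with a *Ube2s* value differed less than the mean between these positions. It was 38.1% in G1 cells and 41.0% at 1π to 1.25π in culture 1, and 57.8% and 72.1% in culture 2. Among the cells above 0, the median value went from 1.94 in G1 to 7.71 at 1π to 1.25π in culture 1, and from 2.30 to 8.62 in culture 2. At 1π to 1.25π, 59.0% and 27.9% of cells were thus at 0 for *Ube2s*, against 3.01% and 6.16% for *Cdc20* and 0.658% and 0.625% for *Ube2c*. The depths of these cells were close: cells at 0 had a median of 21366 and 16411 UMIs, and cells above 0 had 19699 and 18091. The mean of *Ube2c* was 10.6 in cells with a *Ube2s* value and 9.92 in cells without in culture 1, and 11.1 and 10.3 in culture 2. *Pttg1* was at 0.608 and 0.639 in these cells of culture 1 and at 0.725 and 0.902 in culture 2, and *Fbxo5* at 0.821 and 0.806 and at 0.898 and 0.747. Over all positions the gene had a value in 38.7% of cells of culture 1 (exact 95% binomial interval 37.4 to 40.0, counting error only) and in 61.3% of culture 2 (60.2 to 62.5), although culture 1 is the deeper one.

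**Figure D3:**
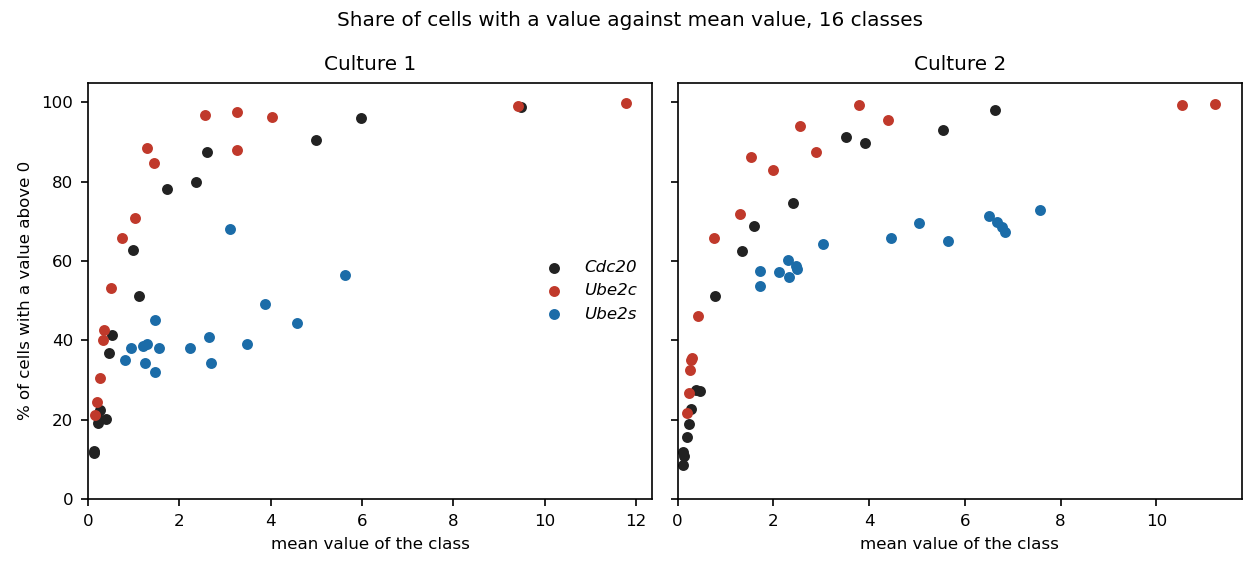
Share of cells with a value above 0 (vertical axis, %) against the mean value (horizontal axis, linear scale) in the 16 classes of the position, for *Cdc20* (black), *Ube2c* (red) and *Ube2s* (blue) in each culture. The classes of *Cdc20* and *Ube2c* approach 100% as their mean rises, and those of *Ube2s* reach at most 72.8% in culture 2.

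*Ube2s* values also sat less often near whole multiples of a step, the lowest value at which a gene's values cluster in a culture, than those of the other genes. With each value multiplied by the total UMIs of its cell, 50.5% and 37.5% of the *Ube2s* values below 4.5 steps lay within 0.15 of a whole number of steps, against 71.9% to 93.0% for the other 7 genes. Of the 25-base words in the annotated transcripts of *Ube2s*, 4.61% occur in transcripts of other genes, of which 547 are in the table. This share does not set *Ube2s* apart. It was higher for *Ube2c* (10.1%) and *Cdc26* (4.78%) and lower for *Anapc11* (3.49%), *Pttg1* (0.962%) and *Fzr1* (0%). For *Cdc20* this share was 33.4%, over 7 other genes, the foremost a processed pseudogene and none of them in the table. For *Fbxo5* it was 17.9%, in 1 processed pseudogene that is not in the table, so reads of these genes could be split with copies. *Ube2s* overlaps *Rpl28* on the other strand, a ribosomal gene with a value in 99.97% and 100% of cells whose R² was 0.00199 and 0.0061. *Cdc20* (with *Elovl1*), *Fzr1* (*Mfsd12*) and *Cdc26* (*Slc31a1*) also overlap a gene of the table on the other strand. These neighbours had a value in fewer cells than *Rpl28*. The shares were 53.6% and 49.7% for *Elovl1*, 11.7% and 7.24% for *Mfsd12*, and 61.3% and 45.9% for *Slc31a1*. *Ube2c* overlaps *Tnnc2*, which is not in the table. The part of these features in the *Ube2s* values was not tested.

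*Pttg1* (ENSMUSG00000020415, chromosome 11, 43420250 to 43426251), which encodes securin, a mitotic APC/C substrate, passed the R² threshold in neither culture. Its mean in G1 cells was 0.890 in culture 1 and 0.773 in culture 2, and at 1π to 1.25π it was 0.627 and 0.774. Over classes of at least 100 cells the lowest mean was at 0.625π to 0.75π in both cultures, 0.567 and 0.494. The highest was 0.948 at 1.875π to 2π in culture 1 and 1.16 at 1.25π to 1.375π in culture 2, 1.67 and 2.35 times the lowest. The share of cells with a value lay between 42.7% and 53.5% in culture 1 and between 34.2% and 52.7% in culture 2 over these classes. In culture 1 every class from 1.25π to 1.875π held fewer than 100 cells. The highest classes of the cultures are therefore drawn from unlike sets of positions. The *Pttg1* means of the classes left out in culture 1 ran from 0.437 (25 cells) at 1.5π to 1.625π to 1.17 (32 cells) at 1.375π to 1.5π.

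The 2 subunits of the complex were measured in most cells at all positions. *Anapc11* (ENSMUSG00000025135, chromosome 11, 120598421 to 120608198), the RING subunit, had a value in 92.6% and 91.0% of cells. Its mean was 2.95 and 2.96 in G1 cells and 3.46 and 3.87 at 1π to 1.25π. *Cdc26* (ENSMUSG00000066149, chromosome 4, 62383654 to 62408642) had a value in 80.6% and 74.0% of cells, with means of 1.66 and 1.63 in G1 cells and 1.68 and 1.70 at 1π to 1.25π. Over classes of at least 100 cells the highest mean of *Anapc11* was 1.22 and 1.36 times the lowest, and that of *Cdc26* 1.29 and 1.24 times.

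The authors also deposited a stage for each cell from 5 gene lists (SchwabeCC), which left 2451 and 3151 cells without a stage. The mean of *Fbxo5* was highest in cells staged S, at 1.12 in culture 1 and 0.942 in culture 2. By the deposited Seurat stages it was 0.807 in S and 0.905 in G2M in culture 1, and 0.832 and 0.762 in culture 2, so the order differed between the cultures. By SchwabeCC, that of *Fzr1* was highest in G2, at 1.23 and 1.25, and that of *Cdc20* in G2.M, at 4.20 and 3.70. Only 54.3% and 62.3% of the cells staged G2.M had a *Cdc20* value, against 91.5% and 88.5% of the cells that Seurat staged G2M. The paper reports that SchwabeCC leaves many labels missing and puts cells of G0/G1 into other stages. The part of such errors in the values by SchwabeCC stage was not tested. The gene lists of Seurat hold *Cdc20* and *Ube2c*, so the high share in Seurat G2M cells may be partly built into that stage. SchwabeCC stages are also set by the expression of listed genes. Whether any gene read here is among those was not tested. Values by stage are therefore a description and not independent of the stages. *Ube2c* stood at 3.82 and 4.64 in G2 and at 4.48 and 4.42 in G2.M, in the opposite order in the cultures. *Ube2s* had a high mean in cells staged M.G1: 3.09 in culture 1, its highest stage, and 4.19 in culture 2, next to 4.24 in G2.M. The subunits differed little over the 5 SchwabeCC stages, with means of 3.08 to 3.49 for *Anapc11* and 1.56 to 1.83 for *Cdc26*. *Anapc11* was at 3.19 and 3.08 in M.G1, against 3.32 and 3.49 in G2.M. *Cdc26* was at 1.72 and 1.78, against 1.68 and 1.66. In the same M.G1 cells *Cdc20* was at 1.37 and 1.01 and *Ube2c* at 1.48 and 1.28.

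The other genes of the pathway, from a list of 53 of which 46 were measured, were read by the same rule and against the same 4.01% of all genes. None of the 12 other core subunits varied. *Anapc15*, whose product helps to release the spindle checkpoint complex, came nearest, with an R² of 0.0413 in culture 1 and 0.0531 in culture 2, and *Anapc5* had 0.0302 and 0.0449. *Cdc27*, a scaffold subunit that docks the activators, had 0.027 and 0.0167. All 4 measured checkpoint inhibitors varied. *Mad2l1* and *Bub1b*, whose products sequester Cdc20, had folds over G1 of 14.5 and 13.4 and of 39.0 and 37.8. *Bub3* had 2.89 and 2.87 and *Trip13*, a remodeller of the checkpoint complex, had 12.3 and 11.8. Each of these was highest at 1π to 1.125π or in the class after it.

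All 17 measured genes listed as substrates varied, among them *Espl1*, which encodes separase, the partner of securin and not itself a classical substrate. Grouped here by the position of the highest class, 10 were highest between 1π and 1.375π. *Ccnb1*, cyclin B1, had folds of 64.2 and 42.6 and *Ccnb2* of 19.7 and 9.39. The kinases *Aurka* (34.9 and 45.4) and *Aurkb* (42.2 and 54.6), the spindle genes *Tpx2* (55.4 and 46.4), *Hmmr* (97.4 and 99.6), *Nusap1* (55.5 and 46.3) and *Kif22* (38.8 and 35.0), the centromere protector *Sgo1* (26.8 and 39.7) and *Espl1* (30.6 and 34.0) were in this range. The other 7 were highest between 0.375π and 1π. Of these, *Gmnn*, the licensing inhibitor geminin, had folds of 11.2 and 14.8. The nucleotide enzymes *Rrm2* (18.1 and 14.7) and *Tk1* (26.9 and 31.0), *Cdca5* (20.9 and 29.6), *Cdc6* (17.6 and 26.4), *Skp2* (3.71 and 5.13) and *Cdc25a* (3.75 and 3.09) were the others. Of 8 other E2 enzymes and deubiquitinases 1 varied, *Usp1* (5.62 and 5.59), while the general E2 enzyme *Ube2d3* had an R² of 0.0162 and 0.00548. None of 5 measured subunits of the SCF ligase varied: *Cul1* had 0.0184 and 0.0104. *Ccna2*, *Plk1* and *Nek2* were not analysed here.

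**Figure D4:**
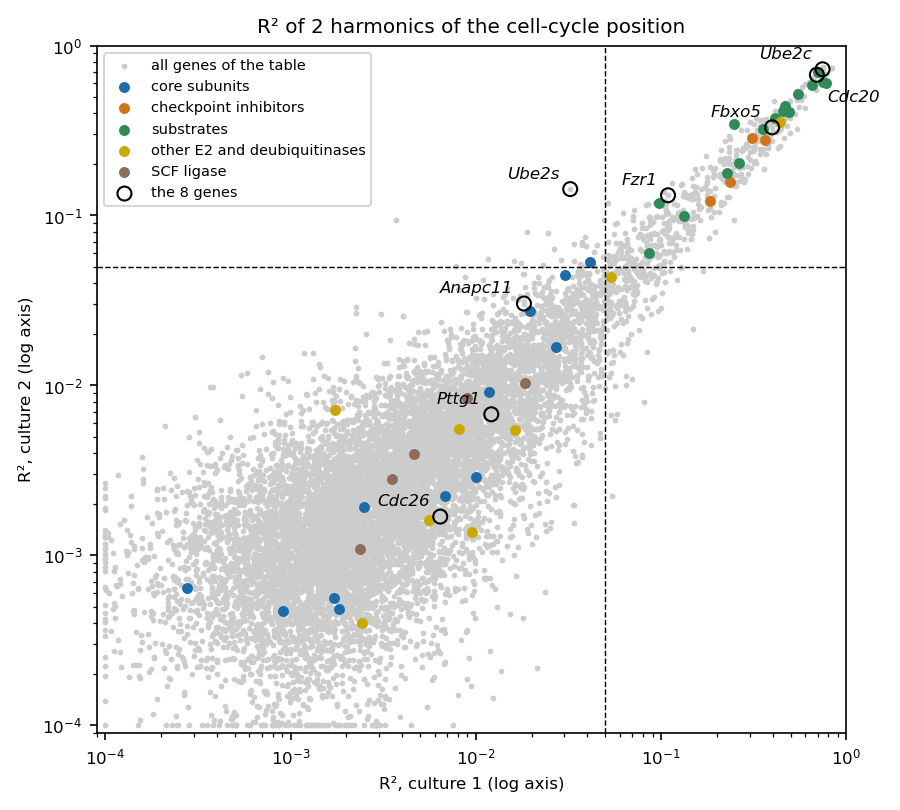
R² of 2 harmonics of the cell-cycle position in culture 1 (horizontal axis, log scale) and culture 2 (vertical axis, log scale) for all 10666 genes (grey; values under 0.0001 are drawn there), the pathway lists (coloured) and the 8 genes (open circles). Dashed lines mark 0.05. *Ube2c* and *Cdc20* lie at the top right with most of the substrates, and *Ube2s* lies above the diagonal, with 0.0323 and 0.143.

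The genes whose means over the 16 classes were most like those of a member were found among the genes that varied, by the lower Pearson r of the 2 cultures. The points are 16 classes of the same cells, so the r values are a description. Closest to *Ube2c* were *Ccnb1* (0.981), *Cip2a* (0.968) and *Ckap2* (0.966), and closest to *Cdc20* were *Ccnb1* (0.960), *Ubald2* (0.950) and *Cip2a* (0.945). Closest to *Fbxo5* were *Cdca5* (0.980), which encodes the cohesin protector sororin, *Esco2* (0.979), a cohesin acetyltransferase of S phase, and *Ncapg2* (0.963), a condensin II subunit. Closest to *Fzr1* were *Pif1* (0.955), a DNA helicase, *Miip* (0.941) and *Gas2l3* (0.938).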

How the data were processed

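The deposited expression table holds a signal that the authors had made from spliced Alevin counts (Salmon 1.3.0, GRCm38) and scaled to the depth of the cells without a log transform; counts could not be recovered, so no count model was used. Total UMIs are sums of estimated counts deposited by the authors, and the position in radians and the stages are other values of the deposited cell table. The authors had removed outlying cells, including those with outlying doublet scores, and no further filter was applied. Gene symbols were found for 10662 of 10666 genes, and gene coordinates are those of GENCODE for GRCm38. Values were transformed as log2(value + 1), and 2 harmonics were fitted to every gene in each culture (Python 3.11.15, numpy 2.4.6, pandas 2.3.3), with an R² threshold of 0.05. The fit and the periodic loess lines (degree 2, span 0.3, which the methods do not state, 401 grid positions) were tested on simulated data. The paper and the labels name different versions of the library kit. The 8 genes, the lists and the rules for named genes (all 8, the pathway genes, markers, and the 3 genes most like each member that varied) were chosen with earlier results of these data known. With 1 condition no test was made and p-values are absent; the spread between cultures rests on n = 2. Alternatives were another pseudocount, span, threshold and number of classes, a depth term, a filter on rarely detected genes and on shallow cells, each culture left out, and a position computed without the 8 genes from 88 genes of the lists of Seurat 5.3.0 (R 4.3.3). Values per step and values multiplied by total UMIs were added after seeing the data.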

Additional observations from a re-analysis of the deposited data

How the results depend on the processing

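The count of genes that varied stayed at 4 of 8 with a pseudocount of 0.1, the position without the members, cells of at least 10000 UMIs, a threshold of 0.1, a depth term and a filter at 5% of cells, and was 5 at a threshold of 0.02. It was 4 to 5 with either culture left out, since *Ube2s* passes in culture 2. The count of other pathway genes ranged from 19 (threshold 0.1) to 25 (threshold 0.02) and was 23 with either culture left out. With the position computed without the 8 genes, which had a circular correlation of 0.943 with the deposited one, the R² of *Cdc20* was 0.671 and 0.634, that of *Ube2c* 0.732 and 0.685 and that of *Fbxo5* 0.389 and 0.281. Folds over G1 were then 44.8 for *Cdc20*, 40.7 for *Ube2c* and 31.7 for *Fbxo5* as means of the cultures. Loess maxima depended on the span: that of *Cdc20* lay at 1.33π at a span of 0.3, 1.24π at 0.1 and 1.23π at 0.5, and that of *Fbxo5* at 0.823π, 0.9π and 0.91π, and class means are reported instead. With the position without the members the highest class lay 1 class earlier for *Ube2c* and *Fbxo5* in culture 2 and 2 classes earlier for *Ube2s* in culture 1, and those of *Pttg1* and *Cdc26*, which did not vary, also moved. The multiplication by total UMIs raised the fold of *Fzr1* from 3.23 to 4.23 and of *Fbxo5* from 33.2 to 41.2, and lowered that of *Pttg1* from 1.40 to 1.17. No paired analysis was possible because there is 1 group. Depth limits the detection of low levels, and values near a single UMI are less precise in the shallower culture 2.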
